A study of Callosobruchus maculatus with 24 samples.

Results

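In the seed beetle Callosobruchus maculatus, 87 genes had a different dominant transcript in female abdomens than in male abdomens. They were found in a table of estimated read counts per transcript, in which the counts of each transcript were summed over the 6 female and over the 6 male abdomen libraries. Genes were chosen by these abdominal shares and counts: a gene was taken where it had at least 300 counts in each sum, where 1 transcript held at least 60% of its counts in females and where another held at least 60% in males. The transcript that led in females is called the female-dominant transcript below, and the one that led in males the male-dominant transcript. Of 29812 genes and 58250 transcripts listed, 7799 genes had enough counts in both sums, 4780 of these had at least 2 transcripts listed, and in 818 the leading transcript differed between the sexes at any share. The 87 genes are those in which the lead was at least 60% on both sides.

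RNA was sequenced from beetles of the South India strain in 8 groups of 3 libraries, 24 in all. The groups were mated female, virgin female, mated male and virgin male abdomens, and combined heads and thoraces of the same 4 kinds of beetle. All beetles were flash frozen, the abdomen was taken off on ice, and stranded libraries of messenger RNA were made. How the beetles were mated, how old they were and how many went into a library is not given in these sources. Nor do the labels say that libraries of a group came from separate beetles, so that p-values speak only of the spread among the libraries, which may be technical.

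A gene can give several transcripts by alternative splicing or by alternative start and end sites, and these can code for different proteins or differ only in untranslated sequence. Sex-specific splicing is best known from the sex determination pathway of insects, in which transformer in Drosophila directs the splicing of doublesex into a female and a male form. The abdomen holds the gonads and accessory glands, and many genes with sex-specific transcripts are found in the germ line in Drosophila. In bulk RNA of a whole body part, a transcript switched within the same cells and a transcript brought by a cell type that only 1 sex has give the same shares, and fewer cells of a type cannot be told apart from less RNA per cell. The IDs in the tables are not paired with gene names, so no function is given to any gene below.

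The libraries held 7805439 to 10171662 counts. The transcript table held 92.8% to 93.6% of the gene table's counts in male abdomens and 98.5% to 98.98% in the other groups. For 78 of the 87 genes the transcripts held at least 99% of the gene's count in the gene table, and for 2 genes under 95%, namely 62.7% for TR27317|c31_g1 and 15.7% for TR37744|c1_g1. The shares below are shares of estimated counts, and since transcript lengths are not in the tables, they are not shares of molecules. Counts for a transcript were estimated from reads that transcripts of a gene may share, so a share also carries the error of that estimate.

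The switch in abdomens ranged from nearly complete to partial. The size of a switch was taken as the mean of the female minus male difference in the share of the female-dominant transcript and the male minus female difference in the share of the male-dominant transcript, both from summed counts. It was lowest at 23.9 percentage points, had a median of 58.8 points and was highest at 99.04 points, and it reached 90 points in 5 genes and stayed under 40 points in 22. Over the 87 genes, the female-dominant transcript had a median summed share of 74.7% in females and 16.8% in males. The male-dominant transcript had a median summed share of 14.1% in females and 69.7% in males. These values chose the genes and are given as a description, with no test.

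In most of the genes the female- and male-dominant transcripts made up nearly all of the counts, with a median of 97.5% in females and 96.4% in males for both together, and a lowest value of 60.2%. In 11 genes each transcript was at or below 5% in the sex it did not lead. In 14 further genes only the female-dominant transcript was so low in males, and in another 14 only the male-dominant transcript was so low in females. In 38 genes both transcripts kept at least 10% of the counts in the other sex, so that both were present in both sexes and their order differed. The female-dominant transcript reached 90% in females in 18 genes, and the male-dominant transcript reached 90% in males in 11.

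**Figure D1:**
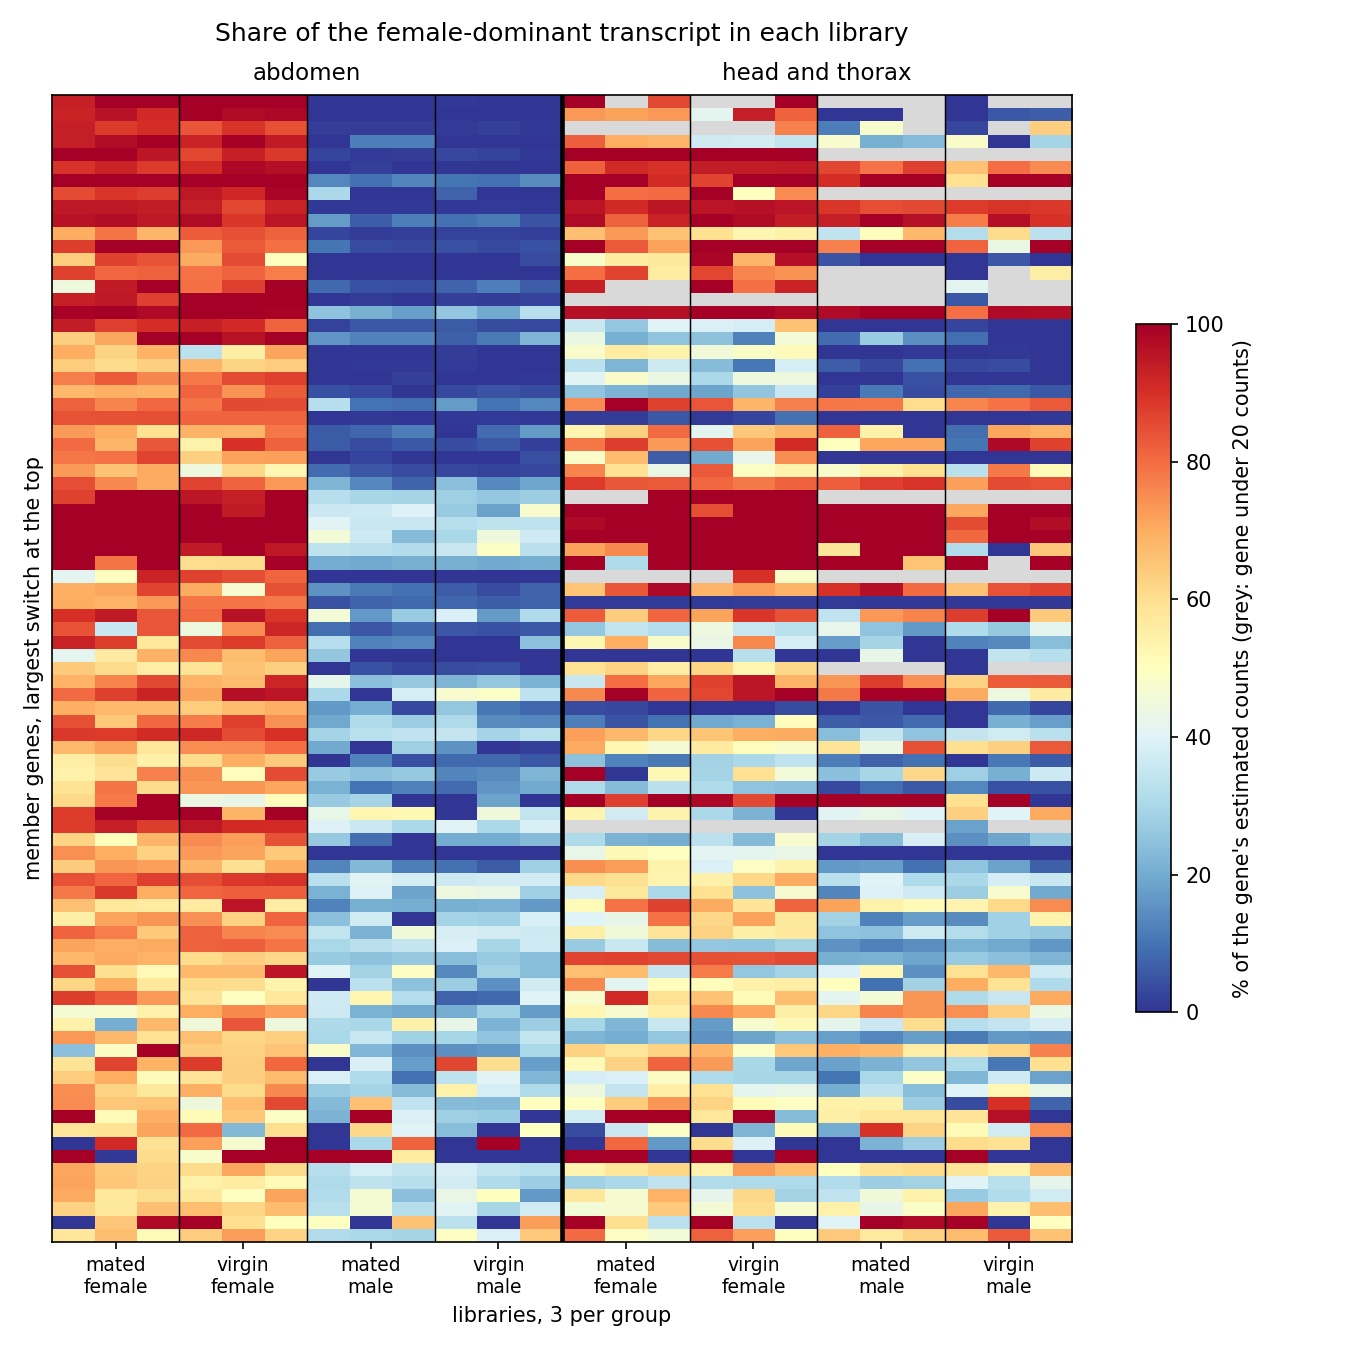
Share of the female-dominant transcript in its gene's counts (color, percent) for the 87 genes (down the page, by size of the switch) in each of the 24 libraries (across, in 8 groups of 3). Grey cells are libraries with fewer than 20 counts of the gene; the female abdomen columns are mostly high and the male abdomen columns mostly low, while the head and thorax columns of the sexes look more alike, with a median share of 55.2% in females and 38.9% in males over 74 genes.

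The largest switch was in TR41580|c0_g1, a gene with 2 transcripts listed. The share of its female-dominant transcript i1 was 93.3%, 100% and 100% in mated female abdomens and 100% in all 3 virgin female abdomens, against 0% in all 3 mated male abdomens and 0.667%, 0% and 0% in virgin male abdomens. The libraries of the sexes were thus at opposite ends of the scale, although the female shares rest on few counts, 351 over the 6 female libraries against 5071 over the 6 male ones. In heads and thoraces the gene had 14 to 25 counts in female libraries and 1 or 2 in all male libraries but 1, virgin male replicate 1 with 58, too few for a comparison of shares.

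TR42621|c4_g1, with 5 transcripts listed, had the next largest switch. Its female-dominant transcript i1 held 92.3%, 96.0% and 91.2% of counts in mated female abdomens and 100%, 97.6% and 98.1% in virgin female abdomens. It had none of the 14232 counts of the gene in the 6 male abdomens, which allows a share of up to 0.0211% by counting error alone (3 counts of the total). The male-dominant transcript i4 held at least 99.5% in every male abdomen and 0% to 8.82% in female abdomens, so this gene came close to a full exchange.

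TR33531|c0_g2 and TR67030|c0_g1 came next. In TR33531|c0_g2 the female-dominant transcript i2 held 93.5%, 88.2% and 90.6% in mated female abdomens and 83.9%, 89.4% and 84.7% in virgin female abdomens, against 0.603% to 1.57% in the 6 male abdomens. In TR67030|c0_g1 the female-dominant transcript i2 held 93.5%, 97.1% and 100% in mated female abdomens and 92.7%, 100% and 94.4% in virgin female abdomens. In males its share was 0%, 11.96% and 11.8% in mated abdomens and 0% in all 3 virgin abdomens. TR67030|c0_g1 differed from the other 3 in that its summed counts were of like size in both sexes, 477 in females and 677 in males, whereas TR41580|c0_g1, TR42621|c4_g1 and TR33531|c0_g2 had far more counts in males.

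The smallest switches were in TR8993|c1_g1 and TR16011|c3_g3, and there the libraries of the sexes overlapped. In TR16011|c3_g3 the share of the female-dominant transcript was 57.7%, 66.7% and 51.2% in mated female abdomens and 63.7%, 72.3% and 62.2% in virgin female abdomens, against 31.4%, 29.9% and 29.2% in mated male and 49.5%, 39.3% and 64.5% in virgin male abdomens. The male libraries were lower than the female ones except for virgin male replicate 3, which had a higher share than 4 of the 6 female libraries. At the threshold, the genes nearest to 60% from above were TR70147|c3_g4, whose female-dominant transcript held 60.04% in females, and TR34290|c0_g1, whose male-dominant transcript held 60.1% in males. Nearest from below were TR39201|c0_g1, at 59.9% in females, and TR1194|c5_g1, at 59.9% in males. The lowest count sum of a gene that was taken was 306, and the highest among those left out on counts alone was 294.

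The order of the transcripts mostly held library by library. The female-dominant transcript was ahead of the male-dominant one in all 6 female abdomens for 74 of the 87 genes. The male-dominant transcript was ahead in all 6 male abdomens for 72 genes, and both held in 67 genes. Taken group by group, the mean share of the sex's own dominant transcript was at least 60% in mated females for 77 genes, in virgin females for 77, in mated males for 75 and in virgin males for 80, and in all 4 groups for 54. For 75 genes (86.2%) the 6 female shares of the female-dominant transcript lay above all 6 male shares, against 4.8% of all transcripts with enough counts, and from this contrast, which chose the genes, nothing is read.

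In 15 genes the shares scattered widely between libraries of the same group, with an SD above 20 points in at least 1 abdomen group, while the median SD over genes and groups was 4.46 points, against 5.27 points for the leading female transcript of all genes with enough counts. TR30014|c5_g3 had the widest scatter, with 0%, 91.1% and 59.4% for its female-dominant transcript in mated female abdomens and 72.1%, 46.9% and 100% in virgin female abdomens, against 0%, 30.3% and 81.3% in mated male and 0%, 100% and 0% in virgin male abdomens. Single libraries of the same sex thus gave opposite answers, in a gene with 57 to 105 counts per abdomen library. The same was seen in TR28227|c0_g1, where the female-dominant transcript had 0.677% in mated female replicate 2 and 100% in mated female replicate 1. The 15 genes had a median lowest library count of 86, against 234 in the other genes. In 69 of the 87 genes the SD was at most 20 points in every abdomen group and the sexes did not overlap. The contrast of the sexes chose the genes, so nothing is read from this count.

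Depth did not always bring stable shares. TR12421|c0_g2 had the most counts in the sex with fewer, 280738 in females and 101016 in males, and its female-dominant transcript i3 held 54.5%, 20.4% and 67.9% in mated female abdomens and 45.1%, 83.9% and 44.8% in virgin female abdomens. In male abdomens it held 30.6%, 29.9% and 53.9% in mated beetles and 42.6%, 21.6% and 27.4% in virgin beetles, so the sexes overlapped. Virgin female replicate 2 alone brought 192984 of the 280738 female counts, and the summed share of 74.3% in females rests largely on it. TR23829|c5_g10, the next by counts, was steady, at 84.2%, 81.0% and 87.4% in mated female and 85.1%, 88.3% and 89.2% in virgin female abdomens, against 33.2%, 40.9% and 38.0% in mated male and 36.7%, 37.7% and 37.6% in virgin male abdomens.

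A difference in shares can come from either transcript or both. Levels are given in CPM, counts relative to a common library total after TMM scaling, and fold differences as the ratio of the means of the 6 female and 6 male abdomens. In 43 genes both transcripts differed at least 2-fold in opposite directions. In 17 genes only the female-dominant transcript was at least 2-fold higher in females, in 24 only the male-dominant transcript was at least 2-fold lower in females, and in 3 neither did so. Among the 17 the male-dominant transcript was also at least 2-fold higher in females in 4, and among the 24 the female-dominant transcript was also at least 2-fold lower in females in 3. With scaling by library size alone these counts were 39, 27, 21 and 0, since TMM scaling moved female over male ratios in abdomens by 0.33 on the log2 scale.

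The summed level of the gene was often different too. The log2 ratio of female over male abdomens had a median of -0.47 with TMM scaling and -0.14 with library size alone, and ranged from -8.67 to 4.03 with TMM scaling. It lay within 2-fold in 41 genes, was at least 2-fold higher in females in 17 and at least 2-fold lower in females in 29. Gene levels in abdomens ran from 4.51 to 4267 CPM in females, with a median of 33.9 CPM, and from 6.32 to 19216 CPM in males, with a median of 51.0 CPM.

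TR54108|c1_g5, chosen after its values were seen, was a gene in which mainly 1 transcript differed. Its female-dominant transcript i2 had levels within 2-fold of each other in the abdomen groups, 132 ± 14.9 CPM in mated females, 80.8 ± 15.2 CPM in virgin females, 107 ± 18.8 CPM in mated males and 126 ± 19.9 CPM in virgin males (SD, n = 3 each). Its male-dominant transcript i4 was at 2.15 ± 0.196 CPM in mated females and 3.87 ± 3.28 CPM in virgin females, against 15904 ± 1749 CPM in mated males and 13774 ± 2127 CPM in virgin males. The share of i2, 92.8% in female and 0.614% in male abdomens, thus differed mainly with the level of i4. The summed level of the gene rose with mating in female abdomens, by 0.70 ± 0.17 on the log2 scale (SE, edgeR, Benjamini-Hochberg adjusted p = 0.0230, n = 3 each). In heads and thoraces i2 led in both sexes, at 91.2% to 96.2% in female and 85.1% to 89.1% in male libraries, which did not overlap.

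**Figure D2:**
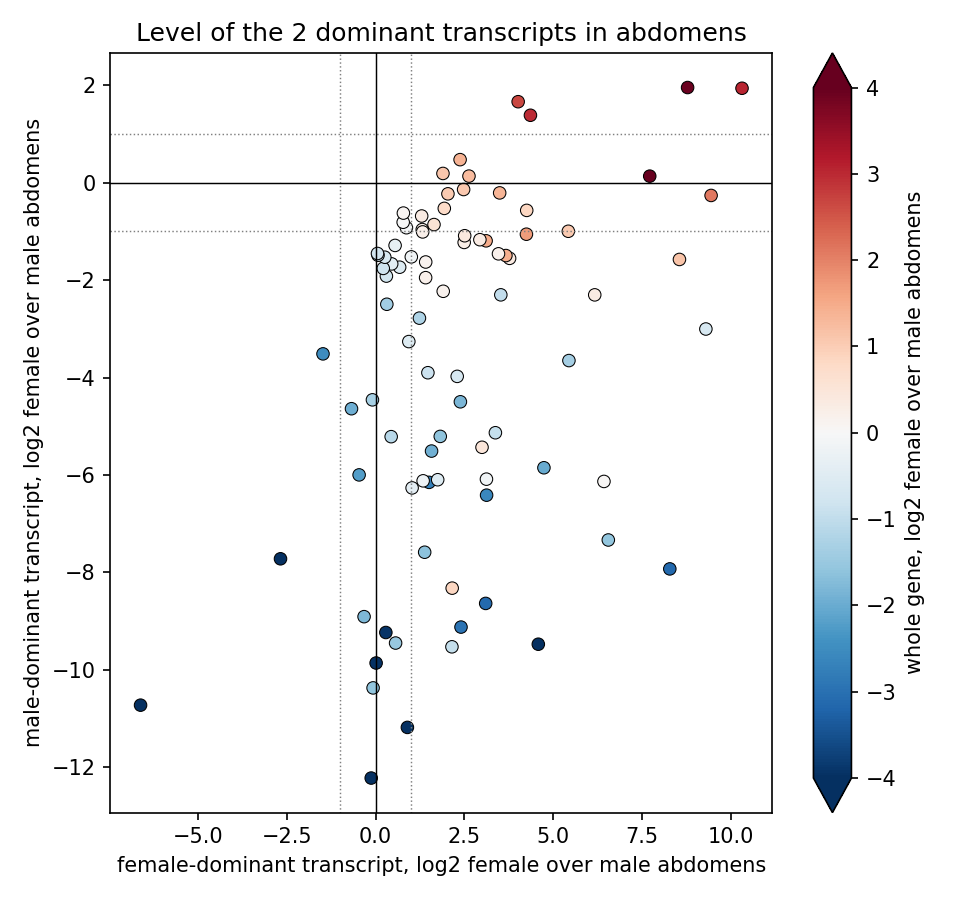
Log2 ratio of female over male abdomens for the level of the female-dominant transcript and of the male-dominant transcript of each of the 87 genes (CPM with TMM scaling, plus a pseudocount of 0.1 CPM), with the ratio of the whole gene as color and dotted lines at 2-fold. The points with the female-dominant transcript at least 2-fold higher and the male-dominant transcript at least 2-fold lower in females are 43 genes; the 4 points at the top right are higher in females in both transcripts, and 3 at the left are lower in both.

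The median number of transcripts listed was 4 in these genes, against 3 in all genes with enough counts and at least 2 transcripts. The number was 2 in 25 genes and 14 at most. No 2 of the 87 genes shared the part of the ID before the bar. It was shared with another listed gene in 37 of them (42.5%), against 43.2% of comparable genes.

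Mated and virgin beetles were pooled in choosing the genes, so the difference between them was not used. In female abdomens none of the 87 female-dominant transcripts passed the test for a change of use with mating. The test was edgeR's quasi-likelihood test of a transcript against the others of its gene, with Benjamini-Hochberg adjustment over all transcripts tested and a threshold of 0.05, and it called 0.179% of all transcripts in this comparison. At an unadjusted p of 0.05 it also called none, while DESeq2 called 6 and limma 5. For DESeq2, limma and unadjusted counts, here and below, no share of all transcripts or genes is given to set them against. The mean share was higher in mated females in 35 genes and lower in 49, with a median change of -1.97 points and a range from -28.8 to 34.1 points, and it moved by over 10 points in 23 genes. The 3 mated and 3 virgin female shares did not overlap in 21 genes (24.1%), against 10.8% of all transcripts with enough counts.

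The change in female abdomens was seen in a few genes when other transcripts of the gene were tested as well. edgeR's test of any change among the transcripts of a gene, with Benjamini-Hochberg adjustment, called 3 of the 87 genes, against 1.36% of all genes tested. They were TR38180|c0_g1 (adjusted p = 0.00204), TR42621|c4_g1 (adjusted p = 0.00676) and TR54108|c1_g5 (adjusted p = 0.0281), named here after their values were seen. On simulated counts this test made more false calls than its threshold allows.

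In TR38180|c0_g1 the female-dominant transcript i4 held 46.6%, 47.5% and 54.1% in mated female abdomens, against 69.7%, 75.7% and 72.2% in virgin female abdomens. The male-dominant transcript i1 held 50.2%, 46.6% and 40.7% in mated females, against 21.9%, 12.4% and 19.4% in virgin females. Mated and virgin libraries did not overlap for either transcript, and in mated females the shares of the 2 transcripts were close together. In male abdomens i4 held 36.7%, 21.3% and 19.6% in mated beetles, against 20.7%, 28.4% and 16.9% in virgin beetles, which overlapped.

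In TR42621|c4_g1 the male-dominant transcript i4 held 7.68%, 4.04% and 8.82% in mated female abdomens, against 0%, 2.43% and 1.14% in virgin female abdomens. It passed the test for a rise with mating in females, the only 1 of the 87 male-dominant transcripts to do so, by 2.48 ± 0.42 on the log2 scale relative to the gene's other transcripts (SE, edgeR's quasi-likelihood test, Benjamini-Hochberg adjusted p = 0.0273, n = 3 each). That test called 0.179% of all transcripts in this comparison, and on simulated counts it made more false calls than its threshold allows. The gene had 239 to 460 counts per female abdomen library, so these shares rest on few counts. The summed level of 932 genes nearly limited to male abdomens (at least 5 CPM there and at most 1/16 of that in females) was 986, 1008 and 964 CPM in mated female abdomens, against 980, 997 and 817 CPM in virgin female abdomens. Those ranges overlapped. In TR54108|c1_g5 the shares of i4 in female abdomens were 1.52%, 1.33% and 1.78% in mated beetles, against 2.19%, 6.70% and 2.93% in virgin beetles.

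In male abdomens none of the 87 female-dominant transcripts passed edgeR's test with mating, against 0.19% of all transcripts, while 5 had an unadjusted p of at most 0.05, DESeq2 called 2 and limma none. The mean share was higher in mated males in 45 genes and lower in 38, with a median change of 0.03 points. The largest change was in TR28227|c0_g1, named after its values were seen, where the female-dominant transcript held 100%, 100% and 55.9% in mated male abdomens against 0% in all 3 virgin male abdomens. It did not pass the test (adjusted p = 0.446 in edgeR's quasi-likelihood test with Benjamini-Hochberg adjustment), and it is the gene whose female libraries scattered from 0.677% to 100%. Mated and virgin male shares did not overlap in 10 genes (11.5%), against 7.79% of all transcripts.

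The difference of the mating change between the sexes was tested as an interaction, and edgeR called none of the 87 female-dominant transcripts, against 0.225% of all transcripts. At an unadjusted p of 0.05 it called 5, and DESeq2 and limma called 1 each. The test of any transcript, with a background of 1.38%, called TR38180|c0_g1 (adjusted p = 0.00835) and TR42621|c4_g1 (adjusted p = 0.0186) with edgeR and Benjamini-Hochberg adjustment.

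In heads and thoraces 73 of the 87 female-dominant transcripts passed the low-count filter. With mating, edgeR called none in females (background 0.0233%) and none in males (background 0.0349%), with 2 each at an unadjusted p of 0.05 and none by DESeq2 or limma. Without virgin male head and thorax replicate 2 edgeR called 1 in males.

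**Figure D3:**
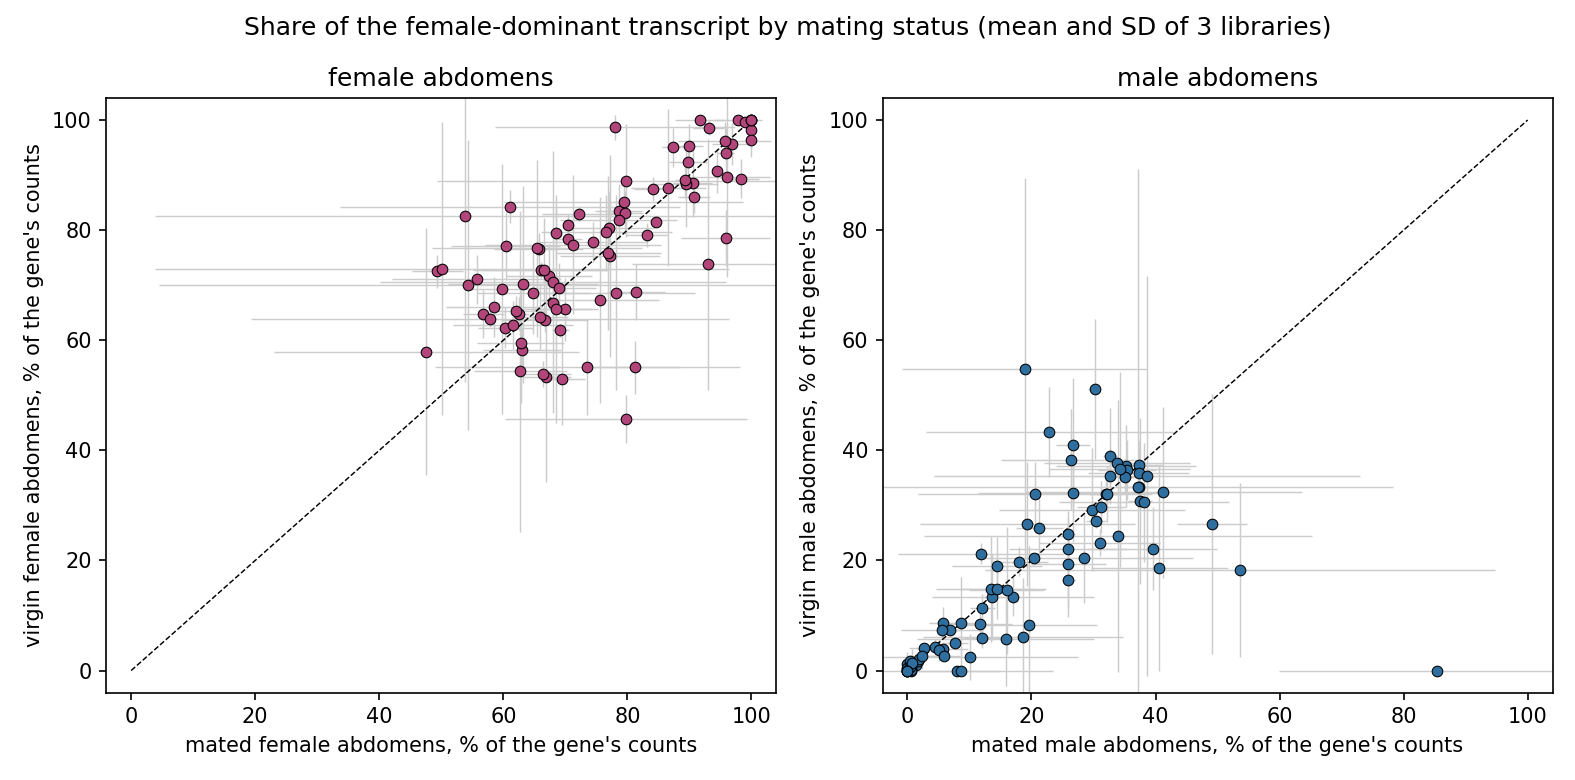
Mean share (percent) of the female-dominant transcript in mated (across) and virgin (up) abdomens of females and of males for the 87 genes, with bars for the SD of 3 libraries. The dashed line marks equal shares; the mean moved by over 10 points in 23 genes in females and in 14 in males, and the point farthest from the line is TR28227|c0_g1 in males, with long bars.

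The summed level of 21 of the 87 genes passed the test for a change with mating in female abdomens. With edgeR's quasi-likelihood test on the gene table and Benjamini-Hochberg adjustment over all genes, 12 of the 87 genes were higher in mated females (13.8%, against 8.18% of all genes) and 9 lower (10.3%, against 6.28%). Here and below, the shares of all genes are not matched for counts, while the 87 genes were chosen with at least 300 in each sum. The 21 calls were 13 without mated female replicate 2, 13 without mated female replicate 3, 12 without virgin female replicate 2 and 13 without virgin female replicate 3. DESeq2 called 31.

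TR68442|c0_g1 had 5.98, 7.66 and 6.94 CPM in mated female abdomens, against 2.09, 3.60 and 3.74 CPM in virgin female abdomens. It rose by 1.17 ± 0.24 on the log2 scale (SE, edgeR, Benjamini-Hochberg adjusted p = 0.0105, n = 3 each). TR34290|c0_g1 had 9.36, 11.3 and 9.25 CPM in mated females, against 5.82, 5.54 and 4.94 CPM in virgin females, and rose by 0.93 ± 0.19 (SE, edgeR, Benjamini-Hochberg adjusted p = 0.00901). In both genes all mated libraries lay above all virgin ones, and both calls held in the 19 alternatives. In TR34290|c0_g1 the male-dominant transcript had none of the 521 counts in female abdomens, mated or virgin, which allows a share of up to 0.576%.

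The largest falls were smaller. TR67350|c1_g6 had 6.84, 6.78 and 7.12 CPM in mated female abdomens, against 10.7, 11.5 and 9.70 CPM in virgin ones, and fell by 0.57 ± 0.15 on the log2 scale (SE, edgeR, Benjamini-Hochberg adjusted p = 0.0324). TR53372|c2_g5 had 9.9995, 9.81 and 7.50 CPM in mated females, against 13.9, 13.7 and 13.4 CPM in virgin ones, and fell by 0.54 ± 0.16 (SE, edgeR, Benjamini-Hochberg adjusted p = 0.0481). Mated libraries lay below virgin ones in both, but the call ended in 5 of 19 alternatives for TR67350|c1_g6 and in 11 of 19 for TR53372|c2_g5, among them those without mated female replicate 1, 2 or 3 and without virgin female replicate 2.

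In male abdomens 3 genes were lower in mated beetles (3.45%, against 1.3% of all genes) and none was higher, against 1.48%. TR52540|c0_g1 had 88.6, 86.2 and 89.9 CPM in mated male abdomens, against 131, 99.2 and 118 CPM in virgin male abdomens, and fell by 0.44 ± 0.08 on the log2 scale (SE, edgeR, Benjamini-Hochberg adjusted p = 0.0222). TR37744|c1_g1, whose transcripts hold 15.7% of its gene count, fell by 0.42 ± 0.09 (SE, edgeR, Benjamini-Hochberg adjusted p = 0.0326), and the third, TR23829|c5_g10, by 0.25 ± 0.05 (adjusted p = 0.0358). These calls changed with single libraries: there was 1 without mated male replicate 2, 1 without virgin male replicate 2 and none without mated male replicate 3, virgin male replicate 1 or virgin male replicate 3. The call ended in 7 of 19 alternatives for TR52540|c0_g1 and in 11 of 19 for TR37744|c1_g1, in both also without mated male replicate 1 and without virgin female replicate 1. DESeq2 called 9.

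Heads and thoraces were not used in choosing the genes. With at least 20 counts in all 12 libraries, shares could be set side by side for 74 genes. In 34 of them the female-dominant transcript had the higher mean share in both sexes, in 19 the male-dominant transcript led in both, in 20 the order differed between the sexes as it did in abdomens, and in 1, TR70147|c3_g4, it was reversed. Over the 74 genes the share of the female-dominant transcript had a median of 55.2% in female and 38.9% in male heads and thoraces, against 71.1% and 22.8% in female and male abdomens.

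The genes were chosen for a large difference in abdomens, so a smaller one elsewhere follows in part from the choice and is given as a description. The female minus male difference in heads and thoraces had a median of 10.3 points and ranged from -29.0 to 69.1 points, against a median of 54.8 points in abdomens. It was above 0 in 59 of the 74 genes, within 10 points of 0 in 32, and at least 50% of the abdominal difference in 17. In TR52416|c3_g5 and TR28227|c0_g1 it was at least as large as in abdomens. The female shares lay above all male shares in 19 genes (25.7%), against 1.28% of all transcripts with enough counts, and lay below all male shares in none, against 1.11%.

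The lowest difference was that of TR70147|c3_g4, and its libraries overlapped widely. Its female-dominant transcript held 3.73%, 36.2% and 48.7% in mated female and 0%, 21.9% and 51.4% in virgin female heads and thoraces, against 20.1%, 89.6% and 62.3% in mated male and 51.4%, 37.5% and 75.2% in virgin male ones. It did not pass the test (adjusted p = 1 by edgeR's quasi-likelihood test with Benjamini-Hochberg adjustment) and is among the 15 genes with a wide scatter in abdomens.

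**Figure D4:**
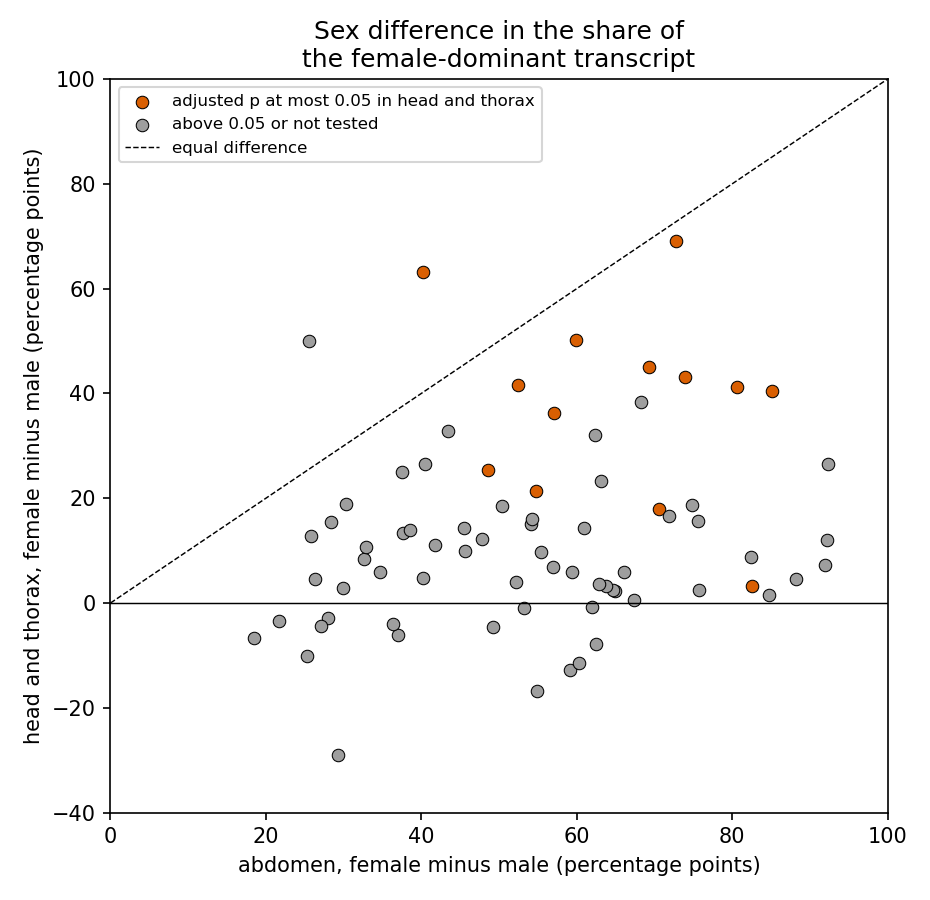
Female minus male difference in the mean share of the female-dominant transcript (percentage points) in abdomens and in heads and thoraces for the 74 genes with at least 20 counts in all 12 head and thorax libraries. Orange points are 13 of the 14 genes called in heads and thoraces (TR42621|c4_g1 has too few counts in 1 library); the median is 10.3 points in heads and thoraces against 54.8 points in abdomens, where the genes were chosen for their difference.

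In edgeR's test of transcript use, the female-dominant transcript was relatively higher in female heads and thoraces in 14 of 73 genes (19.2%, against 1.1% of all transcripts) and relatively lower in none, against 0.861%. At an unadjusted p of 0.05 there were 23, DESeq2 called 27 and limma 23. Of the 14 called, 8 passed the low-count filter through the female libraries alone, as 14 of the 73 tested did, and a transcript let in that way had to be higher in females. The 19.2% and the lack of calls in the other direction thus rest in part on the filter. The background is over all transcripts tested, whether or not they lead in their gene. All 14 called genes had no overlap of the sexes, 8 had the female-dominant transcript at or below 5% in both male groups, and their log2 changes ran from 0.80 to 9.38. Of the male-dominant transcripts, 67 were tested and 5 fell in female heads and thoraces relative to the other transcripts of their genes, against 0.861% of all transcripts. A rise of 1 transcript lowers the share of the others of its gene, so these falls are not an independent result. The test of any transcript called 21 of the 73 genes whose female-dominant transcript was tested, against 8.82% of all genes tested.

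RNA of genes nearly limited to the abdomen of a sex was also found in heads and thoraces. The list of 373 genes nearly limited to female abdomens, without the most abundant of them, summed to 4948 to 13949 CPM in female heads and thoraces, against 886 to 1020 CPM in male ones. The highest value was that of virgin female replicate 3, the next 6084 CPM, and 1 of the genes was at 0 in all 6 female libraries. The 932 genes nearly limited to male abdomens summed to 1388 to 1891 CPM in female heads and thoraces, against 3197 to 10713 CPM in male ones. The highest there were virgin male replicate 1, at 10713 CPM, and mated male replicate 1, at 4941 CPM, and 21 of the genes were at 0 in all 6 male libraries. Without virgin female replicate 3 and virgin male replicate 1, a choice made after the data were seen, 10 of the 14 calls held and no others were made.

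Without its most abundant gene, TR61957|c3_g2, the female-limited list reached 3.43% to 9.68% of its abdominal level in single female head and thorax libraries. With that gene it summed to 87896 to 163758 CPM in female heads and thoraces, against 183389 to 259989 CPM in female abdomens, so that the list gives no single level for abdominal RNA. The female-dominant transcripts of 2 of the 14 called genes were higher in female heads and thoraces than in female abdomens. The part of abdominal RNA in the 14 calls was not tested. TR34698|c1_g2 had the lowest level relative to its own abdominal one, at 13.2 CPM in female heads and thoraces against 1296 CPM in female abdomens, or 1.02%. Its female-dominant transcript held 1.52%, 1.29% and 5.47% in mated female and 0.805%, 2.42% and 9.43% in virgin female heads and thoraces, against 0.0726% to 0.399% in male ones. The share was highest in virgin female replicate 3, the library with the most RNA of the female-limited list without its top gene (log2 change 3.95 ± 0.54, SE, edgeR, Benjamini-Hochberg adjusted p = 6.54e-06, 0.00829 without the 2 libraries, and 0.0932 by limma). TR34698|c1_g2 was named after its values were seen. Its female-dominant transcript passed the low-count filter through the female libraries alone, so it had to be higher in females.

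The largest called change was in TR33547|c3_g1. Its female-dominant transcript held 42.7%, 52.0% and 49.4% in mated female and 41.2%, 41.7% and 43.2% in virgin female heads and thoraces, and it had no count in any male library of either body part. In male heads and thoraces 0 of 1062 counts of the gene allow a share of up to 0.282%, and in male abdomens 0 of 1107 counts allow up to 0.271%. The log2 change was 9.38 ± 0.41 (SE, edgeR, Benjamini-Hochberg adjusted p = 1.95e-15), a value that depends on the prior count. This transcript passed the low-count filter through the female libraries alone, so it had to be higher in females. Its level of 30.7 CPM in female heads and thoraces was at least 447-fold higher than in male ones, taking 3 counts over the 6 male libraries as the floor. In abdomens the same transcript held 62.7% to 74.6% in the 6 female libraries, and it was thus a part of the gene's counts in every female library and in no male one.

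TR42881|c0_g1 was much like it. The female-dominant transcript held 40.7%, 48.3% and 43.6% in mated female and 30.3%, 44.9% and 44.2% in virgin female heads and thoraces. In male ones it held 0%, 0% and 4.46% in mated and 0% in all 3 virgin libraries. The log2 change was 7.71 ± 0.74 (SE, edgeR, Benjamini-Hochberg adjusted p = 1.49e-10), and the calls of TR33547|c3_g1 and TR42881|c0_g1 held in the 19 alternatives. The transcript of TR42881|c0_g1 too passed the low-count filter through the female libraries alone, so its direction was fixed by the filter.

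TR52416|c3_g5, named after its values were seen, was the called gene in which heads and thoraces differed more than abdomens. Its female-dominant transcript i12 held 86.6%, 86.8% and 85.8% in mated female and 84.6%, 84.3% and 85.9% in virgin female heads and thoraces, against 21.1%, 21.4% and 19.1% in mated male and 26.7%, 24.6% and 22.2% in virgin male ones. In abdomens i12 held 60.9% to 70.6% in females, against 23.9% to 26.8% in males. The libraries of a group differed by a few points only, and the male shares were alike in both body parts. The log2 change in heads and thoraces was 1.93 ± 0.16 (SE, edgeR, Benjamini-Hochberg adjusted p = 2.56e-12), and it held in the 19 alternatives.

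The level of i12 in TR52416|c3_g5 was 918 ± 32.5 CPM in mated female and 986 ± 53.1 CPM in virgin female heads and thoraces, against 27.0 ± 2.09 CPM in mated male and 34.3 ± 3.79 CPM in virgin male ones (SD, n = 3 each). The male-dominant transcript i10 was at 75.5 ± 1.35 CPM in mated female and 84.9 ± 2.28 CPM in virgin female heads and thoraces, against 92.5 ± 3.74 CPM in mated male and 94.1 ± 1.04 CPM in virgin male ones. The larger difference was thus in i12. The gene's level was higher in female heads and thoraces by 3.14 ± 0.05 on the log2 scale (SE, edgeR, Benjamini-Hochberg adjusted p = 5.38e-12).

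**Figure D5:**
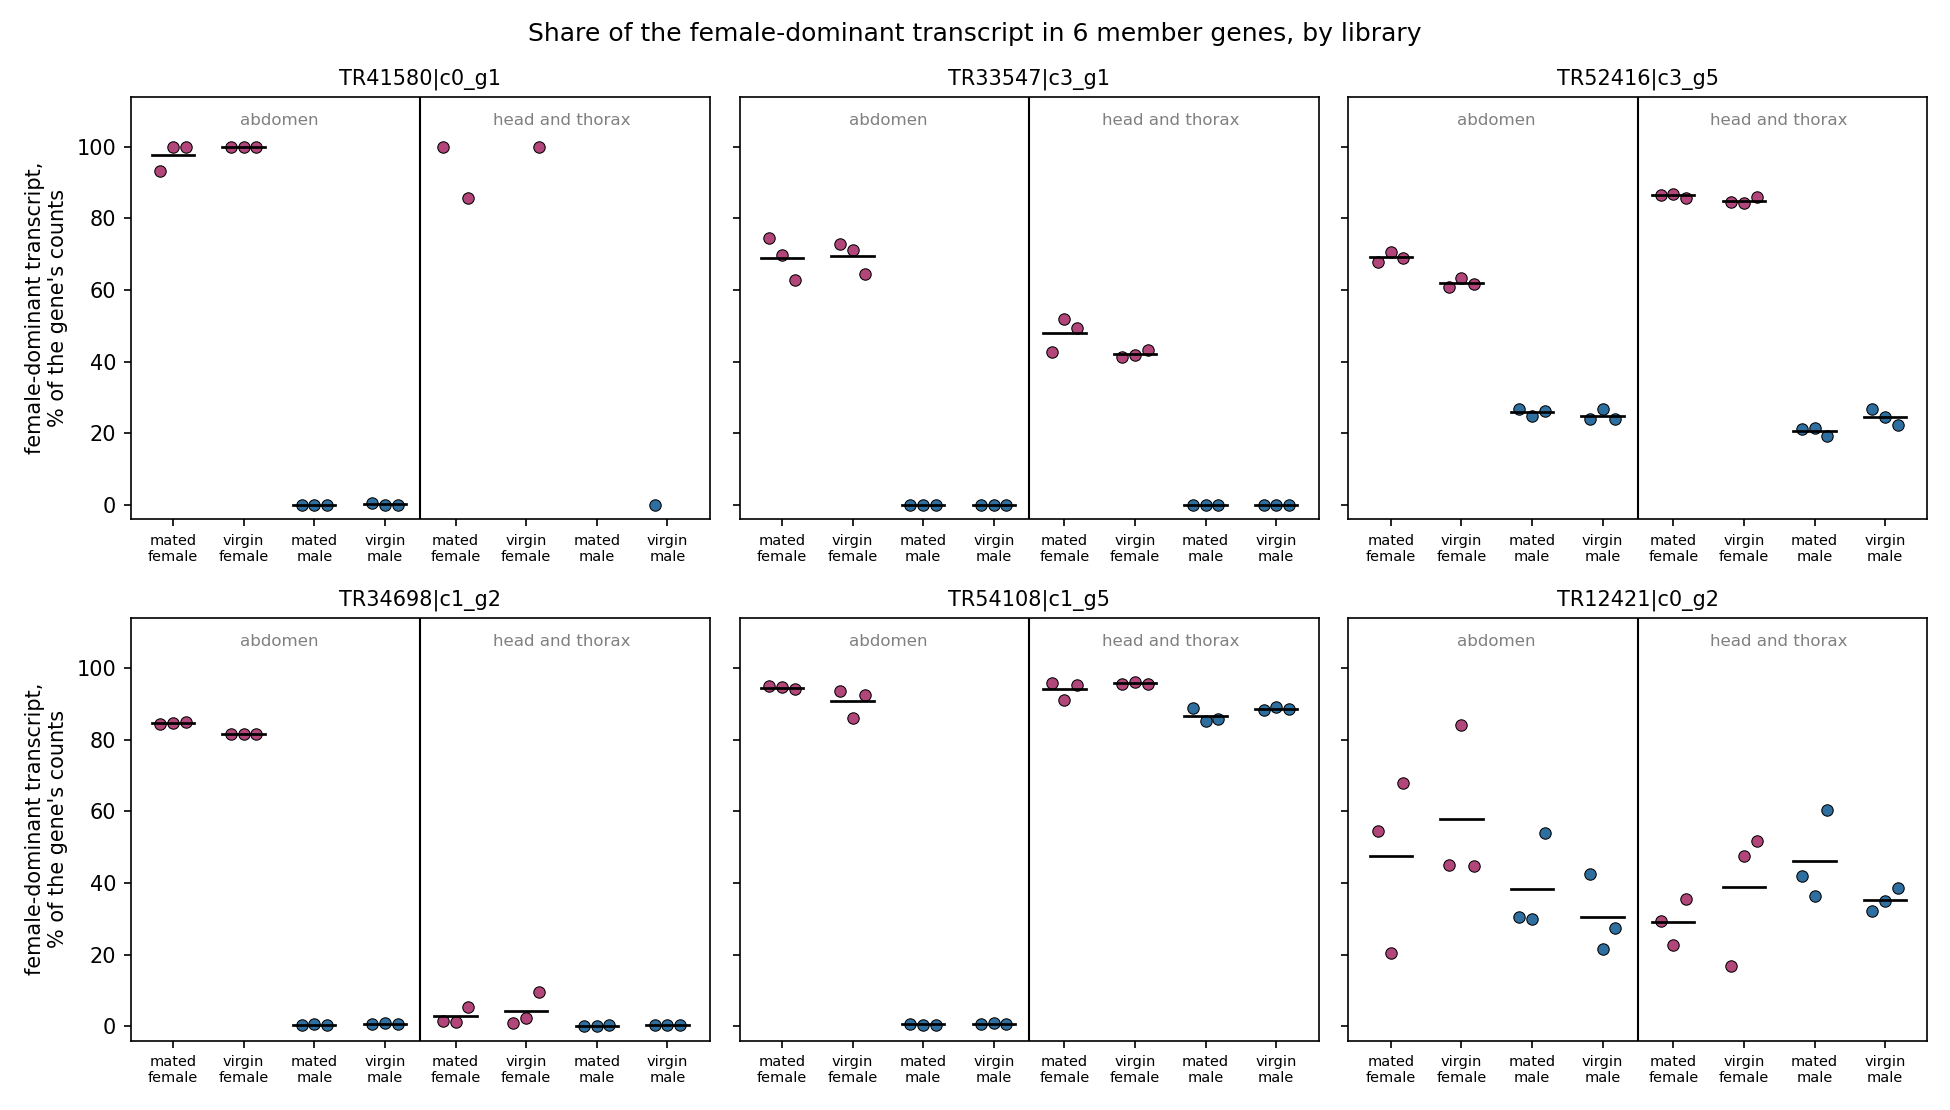
Share of the female-dominant transcript (percent) in each library of the 8 groups for 6 genes, with a line at the mean of a group where all 3 libraries have at least 20 counts of the gene. TR41580|c0_g1 has the largest switch, TR33547|c3_g1 has no count of the transcript in any male library, TR52416|c3_g5 differs more in heads and thoraces than in abdomens, TR34698|c1_g2 and TR54108|c1_g5 differ in abdomens and lie closer together in heads and thoraces, at the low and the high end, and TR12421|c0_g2 scatters within groups. The head and thorax shares of the sexes do not overlap in TR34698|c1_g2 or in TR54108|c1_g5.

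At the level of whole genes, 86 of the 87 genes were tested in heads and thoraces. Of these, 32 were higher in females (37.2%, against 25.4% of all genes) and 23 were lower (26.7%, against 24.4%) by edgeR's test with Benjamini-Hochberg adjustment. TR71139|c9_g4 had 5.57, 5.45 and 5.03 CPM in mated female and 3.77, 6.86 and 14.5 CPM in virgin female heads and thoraces, against 0.27 to 1.17 CPM in the 6 male ones, and was higher in females by 3.86 ± 0.41 on the log2 scale (SE, edgeR, Benjamini-Hochberg adjusted p = 1.69e-05). Its highest library was virgin female replicate 3. In abdomens it was lower in females, at 36.1 to 55.5 CPM, against 274 to 315 CPM in males. None of its 367 counts in female heads and thoraces was of the male-dominant transcript, which allows a share of up to 0.817%.

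TR33767|c0_g1 had 15.9, 14.0 and 15.1 CPM in mated female and 14.5, 18.7 and 22.2 CPM in virgin female heads and thoraces, against 0.541 to 2.39 CPM in the male ones. It was higher in females by 3.82 ± 0.15 on the log2 scale (SE, edgeR, Benjamini-Hochberg adjusted p = 1.84e-08). The calls of TR71139|c9_g4 and TR33767|c0_g1 held in the 19 alternatives.

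In the genes with the largest falls in female heads and thoraces, 2 male libraries stood far above the other 4. TR33531|c0_g2 had 1.34 to 3.44 CPM in female heads and thoraces, against 19.5, 4.04 and 1.76 CPM in mated male and 47.9, 2.39 and 2.86 CPM in virgin male ones. The fall of 2.42 ± 0.87 on the log2 scale (SE, edgeR, Benjamini-Hochberg adjusted p = 0.0422) did not pass without mated male replicate 1 (adjusted p = 0.138) or without virgin male replicate 1 (adjusted p = 0.155). TR35982|c0_g1 had 2.66 to 4.99 CPM in female ones, against 28.2, 5.99 and 4.46 CPM in mated male and 46.4, 2.53 and 6.44 CPM in virgin male ones. Its fall of 2.09 ± 0.73 (SE, edgeR, Benjamini-Hochberg adjusted p = 0.0378) did not pass without mated male replicate 1 (adjusted p = 0.113) or without virgin male replicate 1 (adjusted p = 0.114). In male abdomens the genes had 224 to 347 CPM and 2006 to 2321 CPM, and these 2 libraries were those with the most RNA of genes limited to male abdomens. Both genes meet the rule of that list and are part of it. The part of abdominal RNA in these falls was not tested. The calls ended in 12 of 19 alternatives for TR33531|c0_g2 and in 11 of 19 for TR35982|c0_g1, among them each of the 6 that left out 1 female library.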

How the data were processed

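The authors deposited tables of estimated counts (also called expected counts) for genes and transcripts, without normalisation and with both sequencing lanes of a library together. Values that are not whole made up 14.1% of the gene table and 40.0% of the transcript table. Per the submitters' processing notes, Bowtie 0.12.6, Trimmomatic 0.3, cutadapt 1.2.1 and FastQC 0.11.2 were used. Assembly, counting program and use of strand are not given in these sources, so reads shared by near-identical, overlapping or antisense genes may be split in an unknown way. For 4524 genes the transcripts summed to another value than the gene by over 0.5 in some library.

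Counts were rounded and tested with edgeR 4.0.16 in R 4.3.3 (TMM scaling, filterByExpr by group, robust quasi-likelihood fit of the 12 libraries of a body part, diffSpliceDGE for transcripts), with Benjamini-Hochberg adjustment over all features and a threshold of 0.05. Tests were checked on simulated counts, where the transcript tests made more false calls than the threshold allows. DESeq2 1.42.0 and limma 3.58.1 were alternatives, and the share called of all transcripts or genes is given for edgeR only. Genes named were the 4 largest and 2 smallest switches, the 2 with most counts, up to 2 called in each direction per test and those nearest the threshold; others are said to be chosen after their values were seen. A share in a library needs 20 counts of the gene. The limits given for transcripts with no count cover counting error only. SDs and SEs speak of the spread among the libraries. The genes and lists were chosen with earlier results of these data known. Of 36 same-numbered pairs of libraries, 2 had deviations correlated above 0.1 (lowest -0.18, highest 0.18). Both were mated against virgin male heads and thoraces, replicate 1 at 0.167 and replicate 3 at 0.182, while replicate 2 was at -0.088. No pairs of unlike numbers are given beside them, so whether replicate numbers pair libraries is not settled.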

Additional observations from a re-analysis of the deposited data

How the results depend on the processing

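The number of genes was 139 with at least 100 counts and 49 with at least 1000, and 283 with at least 50% of counts and 17 with at least 75%. Leaving out 1 abdomen library gave 78 to 88. Weighting libraries equally gave 84 genes, of which 83 were among the 87. Denominators from the gene table, added after the data were seen, gave 86, of which 84 were among them.

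For female-dominant transcripts called in heads and thoraces, 14 became 27 with DESeq2, 23 with limma (and 1 in the opposite direction), 27 in genes at 50%, 1 in genes at 75%, 5 for the male-dominant transcript and 11 to 13 without 1 library. Of the 14, DESeq2 shared all and limma 12. With mating in female abdomens, 0 became 6 with DESeq2, 5 with limma, 1 for the male-dominant transcript and 3 for any transcript. In male abdomens it became 2 with DESeq2 and 1 in genes at 50%. The difference between the sexes gave 1 with DESeq2, 1 with limma, 1 in genes at 50% and 2 for any transcript. In male heads and thoraces it was 0 to 1 without 1 library.

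At the gene level, the 21 mating calls in females were 12 to 24 without 1 library, 11 in genes at 1000 counts, 70 at 50% and 3 at 75%. The 3 in males were 0 to 2 without 1 library, 9 with DESeq2, 0 with only the libraries compared, 10 in genes at 50% and 1 at 75%. The 55 sex calls in heads and thoraces were 32 in genes at 1000 counts, 172 at 50% and 9 at 75%. The causes were not tested, apart from the gene sets that differ in size by construction.

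Whether replicate numbers pair the libraries is not settled. With the replicate number as a block, 13 of the 14 head and thorax calls held, and gene-level calls were 21 and 2 with mating in female and male abdomens and 53 for sex in heads and thoraces. Low counts limit what can be seen: 14 female-dominant transcripts were not tested in heads and thoraces.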
